A study of Mus musculus with 40 samples.

Results

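The genes of the proteasome, the protease that degrades ubiquitin-tagged proteins, were followed through 28 RNA-seq libraries of mouse follicular (FO) B cells. Members were all genes in the deposited expression files whose name, without suffixes, begins with Psma to Psmg and a digit. They numbered 50 of 24732 genes. By role these were 7 alpha ring genes, 7 constitutive beta genes, 3 immunoproteasome genes, 2 core genes of other tissues, 6 base ATPases, 2 base scaffold genes, 9 lid genes including a ubiquitin receptor, 3 base assembly chaperones, 4 core assembly chaperones, 4 activators, 1 inhibitor and 2 others. The others were Psmc3ip, a recombination factor named for binding Psmc3 and not a subunit, and Psme2b, a near copy of Psme2.

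All mice were C57BL/6 and carried MD4, a receptor transgene that makes their B cells recognise hen egg lysozyme (HEL), and all cells were sorted by FACS. Ikzf1, the gene of the transcription factor Ikaros, was deleted with Cd23-cre, which acts in B cells that have begun to express Cd23, late in their development. Cells stimulated with CpG, a ligand of Tlr9, for 1 day in vitro gave 4 libraries of genotype Cd23-cre Ikzf1(fl/-) and 4 controls that were Cd23-cre Ikzf1(fl/+). Cells taken ex vivo 1 day after intravenous HEL gave 5 libraries of genotype Cd23-cre Ikzf1(fl/fl), and 5 from controls that had Ikzf1(fl/fl) but no Cre. Anergic cells, from mice that also carry the soluble HEL transgene ML5, were 1 library each of Ikzf1(fl/fl) without Cre, Ikzf1(fl/+) without Cre and Cd23-Cre Ikzf1(fl/+). Among naive cells 2 libraries were of genotype Cd23-cre Ikzf1(fl/-), 3 of genotype Cd23-cre Ikzf1(fl/+), and 2 had Ikzf1(fl/+) but no Cre. In fl/- mice the minus allele is null in all cells, not in B cells alone, and the controls for HEL lack Cre as well as the deletion.

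The proteasome consists of a barrel-shaped core of alpha and beta rings, in which Psmb5, Psmb6 and Psmb7 carry the active sites, and a regulatory particle of base and lid that binds, unfolds and feeds in ubiquitinated proteins. In lymphocytes the catalytic subunits can be exchanged for those of the immunoproteasome, Psmb8 for Psmb5, Psmb9 for Psmb6 and Psmb10 for Psmb7, which changes the peptides left for presentation on MHC class I. Interferons raise the immunoproteasome genes and the activators Psme1 and Psme2 in many cell types.

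The promoter windows of the 3 immunoproteasome genes and of 2 of their constitutive counterparts are shown because these paralogous pairs moved apart in the data. The sequences are 250 bases upstream of the gene start, from RefSeq on build GRCm38.p6, read along the gene's strand. Capitals mark matches on either strand to 5 motifs: CCAAT, GAAA followed after any 2 bases by GAAA (the interferon-stimulated response element core), TGANNNNGC (the antioxidant response element core), CACGTG (the E-box) and TGGGAA (an Ikaros core site).
Psmb8 chr17:34197945-34198194 (+ strand): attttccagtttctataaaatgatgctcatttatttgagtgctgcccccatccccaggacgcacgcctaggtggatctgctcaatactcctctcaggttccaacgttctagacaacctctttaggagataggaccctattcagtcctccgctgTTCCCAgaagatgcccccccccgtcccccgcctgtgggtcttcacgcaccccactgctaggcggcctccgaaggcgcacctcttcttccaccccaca
Psmb9 chr17:34187331-34187580 (- strand): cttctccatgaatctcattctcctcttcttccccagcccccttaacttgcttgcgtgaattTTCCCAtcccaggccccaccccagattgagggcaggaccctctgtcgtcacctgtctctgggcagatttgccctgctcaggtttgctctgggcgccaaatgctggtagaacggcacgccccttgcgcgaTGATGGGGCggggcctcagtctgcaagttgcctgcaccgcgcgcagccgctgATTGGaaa
Psmb10 chr8:105938393-105938642 (- strand): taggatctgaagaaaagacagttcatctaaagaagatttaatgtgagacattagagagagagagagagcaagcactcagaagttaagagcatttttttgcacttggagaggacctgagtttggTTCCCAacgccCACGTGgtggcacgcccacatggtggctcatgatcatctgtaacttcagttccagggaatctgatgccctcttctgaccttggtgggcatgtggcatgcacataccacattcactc
Psmb5 chr14:54617996-54618245 (- strand): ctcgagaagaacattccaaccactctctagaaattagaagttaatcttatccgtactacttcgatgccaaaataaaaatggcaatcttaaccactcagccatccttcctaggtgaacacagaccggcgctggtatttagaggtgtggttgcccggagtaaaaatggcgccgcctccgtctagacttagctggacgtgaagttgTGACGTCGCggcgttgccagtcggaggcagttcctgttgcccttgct
Psmb6 chr11:70525107-70525356 (+ strand): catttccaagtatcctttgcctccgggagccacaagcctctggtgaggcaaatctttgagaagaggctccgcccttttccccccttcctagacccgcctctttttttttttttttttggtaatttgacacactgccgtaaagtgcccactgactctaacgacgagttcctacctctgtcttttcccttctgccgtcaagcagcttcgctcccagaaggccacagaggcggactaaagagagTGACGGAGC
RefSeq promoters of 300 bases (250 before and 50 after the start) were on hand for 42 of the 50 genes. The interferon element core was in 11.9% of these and in 3.49% of all 27025 promoters, but in none of the 3 immunoproteasome windows. TGANNNNGC was in 54.8% against 41.4%, CCAAT in 35.7% against 37.9%, CACGTG in 9.52% against 7.24% and TGGGAA in 26.2% against 25.5%. TGGGAA was in all 3 immunoproteasome windows. No motif contains another, but matches may overlap. A match is a string of letters and not a measured binding site.

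Expression was deposited as TPM (a share of all transcripts of the library, scaled by transcript length, so that levels of different genes can be compared). Reads recovered from the TPM steps gave a depth of 12126702 to 25424364 per library. Where Ikaros was deleted, each library had less Ikzf1 than any of its controls: 31.7 to 39.5 against 135 to 172 TPM after CpG, 60.3 to 79.3 against 195 to 261 TPM after HEL, and 57.3 to 65.3 against 120.2 to 146 TPM in naive cells. The library numbers begin with 49 for the CpG libraries, with 57 for the HEL, anergic and 3 naive libraries, and with 36 for the other 4 naive libraries, and are called library series here. Stimulus, culture and library series therefore cannot be told apart between CpG and naive cells. The summed TPM of 8 follicular B cell markers was 1993 to 3618 in CpG libraries and 11967 to 17342 in the others, and the defining surface markers Fcer2a and Cr2 were at 4.61 to 68.4 and 1.20 to 9.41 TPM in CpG libraries, against 538 to 1638 and 34.0 to 102 TPM in the others. Summed markers of other cells were low, at 0.0378 to 17.0 TPM for T cells, 1.45 to 42.3 TPM for NK cells, 1.27 to 95.7 TPM for myeloid cells and 4.04 to 41.2 TPM for dendritic cells, with the myeloid maximum in replicate 4 of the fl/+ CpG cells. T and NK cell sums were highest in the 4 naive libraries of series 36, at 3.97 to 17.0 and 25.3 to 42.3 TPM. All other libraries had at most 0.767 and 22.8 TPM. The myeloid sum was 30.6 to 60.4 TPM in naive libraries of series 36 and 10.6 to 16.4 TPM in those of series 57. All naive fl/- libraries are of series 36. The sum of 4 plasma cell markers, mostly Xbp1, was 131 to 175 TPM in CpG and 72.3 to 162 TPM in the other libraries. Whether replicates are separate animals is not in the labels, and the p-values rest on the spread of these libraries, which may be technical in part. In such bulk libraries fewer cells of a type and less RNA per cell cannot be told apart.

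Of the 50 genes, 48 were at 1 TPM or more in all 28 libraries. The exceptions were the core genes of other tissues. Psma8, the alpha subunit of the testis proteasome, had 14 to 23 reads per library in fl/- CpG cells and 0 to 3 elsewhere, and Psmb11, the beta subunit of the thymus proteasome, had 0 to 7 reads. Psma8 reached 1 TPM in the 4 fl/- CpG libraries alone and is left out of the counts and tests of members that follow. It enters only where a count is said to include it. In the 7 naive libraries Psmb8 was the most abundant member, at 1178 to 1719 TPM, and Psmb9 followed at 631 to 1066 TPM. The activator Psme1 (600.1 to 821 TPM) and the constitutive beta gene Psmb1 (451 to 689 TPM) overlapped with Psmb9 and with each other. Psmb10 was at 432 to 498 TPM. All 3 constitutive partners lay below their immunoproteasome counterparts in every naive library, Psmb5 at 249 to 293 TPM, Psmb6 at 280.4 to 326 TPM and Psmb7 at 115 to 186 TPM. The core holds its subunits in equal number, but their transcripts were not equal. Over the 14 alpha ring and constitutive beta genes, the highest TPM was 15.0 to 36.9 times the lowest in naive libraries. This ratio was 31.6 to 36.9 in series 36 and 15.0 to 18.3 in series 57.

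**Figure D1:**
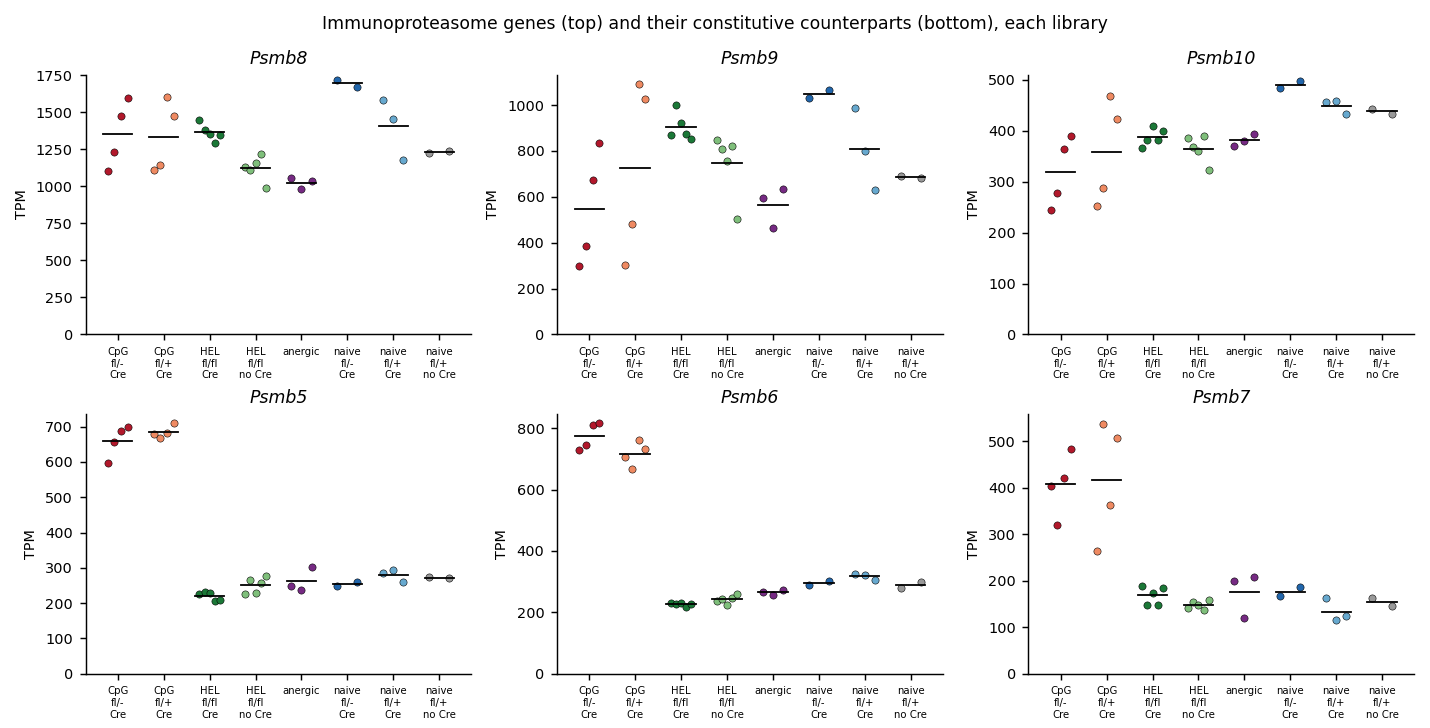
TPM (linear axis) of Psmb8, Psmb9 and Psmb10 in the upper row and of the genes they replace, Psmb5, Psmb6 and Psmb7, in the lower row. Each point is 1 library, lines are group means, and the groups run from CpG-stimulated to naive cells. The lower row stands apart in CpG libraries (Psmb5 598 to 711 TPM, against 208 to 302 TPM in all others), while the upper row overlaps.

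CpG-stimulated cells held more transcript of nearly every proteasome gene than naive cells, except the immunoproteasome genes. All alpha ring, constitutive beta, base and lid genes were called higher in both genotypes on the deposited scale, and 4 of these genes lost the call in 1 genotype or both, or turned, with median-ratio scaling, which sets the typical gene to no change. The difference reached up to 3.31 on the log2 scale for the ATPase Psmc6 in fl/- cells. The summed TPM of the 50 genes was 1.60 to 2.09% of all TPM in CpG libraries, against 0.829 to 0.976% in naive and 0.737 to 0.936% in HEL-exposed and anergic libraries, with no overlap. Differences are given as log2(TPM + 1) of the first group minus the second, ± standard error, which understates the change of low genes. With limma on this scale and a call at an adjusted p under 0.05, 42 members were higher and 2 lower of 48 in fl/- cells (4 CpG and 2 naive libraries), where 76.1% of all 10808 genes tested were called, 56.3% higher and 19.8% lower. In fl/+ cells (4 CpG and 3 naive libraries) 44 were higher and 0 lower of 48 tested, where 64.1% of 10527 genes were called, 43.0% higher and 21.0% lower. The 2 comparisons share no library. The median difference of the tested members was 1.57 in fl/- and 1.61 in fl/+ cells, beside 0.56 and 0.30 over all genes. This scaling moved the members' values by a median of -0.58 in fl/- and -0.32 in fl/+ cells. On that scale 37 of the 48 members were higher and 6 lower in fl/- cells, and 40 were higher and 1 lower in fl/+ cells. The 6 were Psmb1, Psmb8, Psmb9, Psmb10, Psmg4 and Psme2b, and the 1 was Psmb10. Over all genes tested, the scaled fits called 4158 higher and 3800 lower in fl/- cells, and 3562 higher and 3363 lower in fl/+ cells. In fl/- cells Psma2 (0.34, limma adjusted p = 0.0512), Psmb3 (0.42, limma adjusted p = 0.0558) and Psmd8 (0.15, limma adjusted p = 0.245) were not called on that scale, nor was Psmb1 in fl/+ cells (0.13, limma adjusted p = 0.623).

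Among the alpha ring genes, which form the gate of the core, the 7 differences ran from 0.92 to 2.82 in fl/- and from 1.43 to 2.95 in fl/+ cells. Psma4 was at 218, 168, 235 and 241 TPM in fl/- CpG libraries, against 28.9 and 29.8 TPM in naive ones (2.82 ± 0.15, limma adjusted p = 1.23e-06). In fl/+ cells Psma4 was at 181, 259, 262 and 264 TPM after CpG, against 26.1, 26.5 and 39.1 TPM in naive cells (2.95 ± 0.19, limma adjusted p = 2.14e-06). Every CpG library lay far above every naive one. In the files Psma4 carries the suffix OVL, read here as overlap with another gene, so its level is uncertain. The same suffix marks Psmb5, Psme1, Psme2b and Psmc3ip. Psma1 showed differences of 2.67 ± 0.11 and 2.36 ± 0.21. Its naive level was lower in series 36 (53.3 to 71.0 TPM) than in series 57 (99.5 to 109 TPM), and all naive fl/- libraries are of series 36. The lowest of the 7 in both genotypes was Psma2 (0.92 ± 0.12 in fl/- and 1.43 ± 0.30 in fl/+ cells).

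The regulatory particle moved with the core. Psmc6, an ATPase of the base that unfolds substrates, was at 155, 123, 141 and 143 TPM in fl/- CpG libraries, against 13.5 TPM or less in both naive ones (3.31 ± 0.11, limma adjusted p = 1.74e-07). In fl/+ cells it was at 91.5, 133, 126 and 116 TPM after CpG, against 12.7, 15.8 and 24.8 TPM in naive cells (2.68 ± 0.22, limma adjusted p = 8e-06). Its naive level was lower in series 36 (12.7 to 15.8 TPM in 4 libraries) than in series 57 (24.8, 26.0 and 24.9 TPM), and against the series 57 library alone the fl/+ difference was 2.17. Psmd1, the scaffold that docks ubiquitin receptors, rose by 2.65 ± 0.10 and 2.38 ± 0.12. The 9 lid genes rose by 0.73 to 2.42 in fl/- and 0.97 to 2.29 in fl/+ cells. Psmd14, the lid enzyme that removes ubiquitin chains, had the highest of these in both genotypes. It was at 303, 292, 341 and 333 TPM in fl/- CpG libraries, against 58.8 and 57.9 TPM in naive ones, and at 278, 288, 371 and 312 TPM in fl/+ CpG libraries, against 69.7 TPM or less in naive ones.

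The 7 constitutive beta genes rose less than the alpha ring, with medians of 1.19 and 1.29 beside 2.15 and 2.20 in fl/- and fl/+ cells, and the difference between these roles was not tested. The active-site genes Psmb5, Psmb6 and Psmb7 rose by 1.37, 1.39 and 1.19 in fl/- and by 1.29, 1.17 and 1.60 in fl/+ cells. Psmb1 had the lowest difference of the 7. It was at 750.1, 740.5, 818 and 842 TPM in fl/- CpG libraries, against 669 and 637 TPM in naive ones (0.27 ± 0.09, limma adjusted p = 0.0246), and at 705, 789, 795 and 835 TPM in fl/+ CpG libraries, against 689, 591 and 451 TPM in naive ones (0.45 ± 0.15, limma adjusted p = 0.0227). Its direction was not stable, since with median-ratio scaling it was -0.31 in fl/- and 0.13 in fl/+ cells. In fl/- cells the call was lost without CpG replicate 3 (0.25) or 4 (0.24) and without naive replicate 1 (0.30) or 2 (0.23). In fl/+ cells it was lost without CpG replicate 4 (0.42) or naive replicate 3 (0.29).

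Core transcripts were less unequal after CpG, and members with a lower naive level tended to show a larger difference. Over the 14 alpha ring and constitutive beta genes, the SD of log2 TPM within a library was 0.949 to 1.12 in CpG libraries and 1.34 to 1.68 in naive ones, and the highest TPM was 8.82 to 12.0 times the lowest in CpG libraries. The naive SD was 1.59 to 1.68 in series 36 and 1.34 to 1.42 in series 57. Across these 14 genes the naive log2 level and the CpG difference in fl/- cells had a Pearson r of -0.76 and a Spearman rho of -0.569. Across 43 members r was -0.534 and rho -0.535. These describe genes, which are not independent replicates. The naive level was the mean of the naive libraries of series 57, none of which enters the fl/- difference. That difference rests on naive libraries of series 36, where some members of low level, Psma3 and Psma4 among them, were lower than in series 57. The part of the series in these correlations was not tested.

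**Figure D2:**
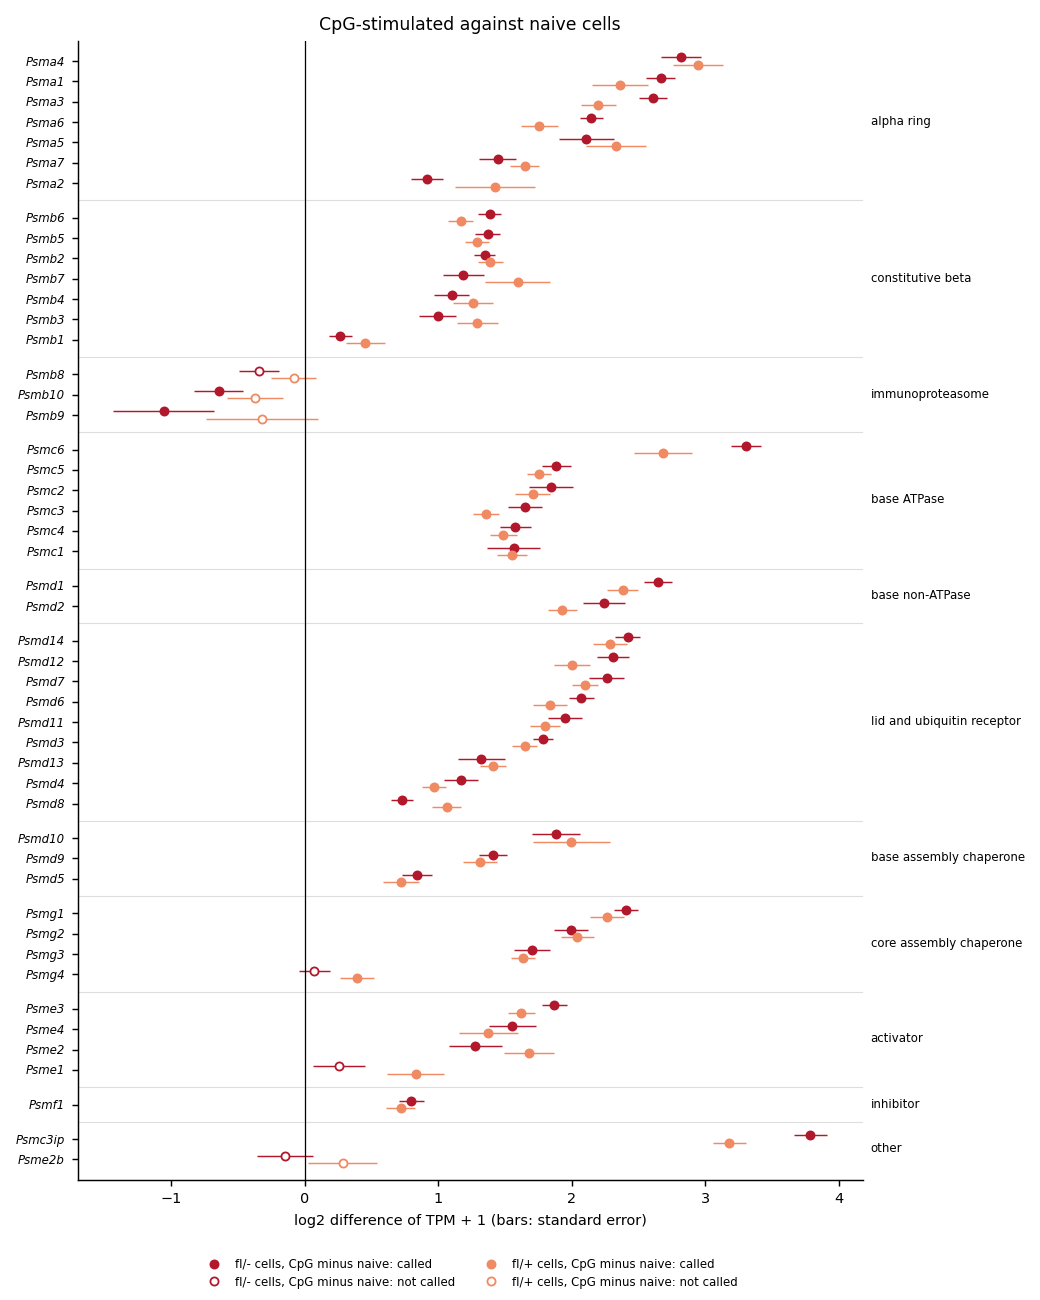
Log2 difference of TPM + 1 between CpG-stimulated and naive cells for each tested member, grouped by role, in fl/- (red) and fl/+ (orange) cells. Filled points were called and bars are standard errors. The 3 immunoproteasome genes lie at or left of 0 in both genotypes, and the alpha ring, beta, base and lid genes lie right of it. Psma8 is not plotted.

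The immunoproteasome genes Psmb8, Psmb9 and Psmb10 were the exception among the core genes, with none called higher. In fl/- cells 2 of the 3 were called lower, and all 3 with median-ratio scaling. In fl/+ cells 0 of the 3 were called, and with median-ratio scaling 1, Psmb10, was lower. Psmb9 was at 297, 385, 675 and 832 TPM in fl/- CpG libraries, against 1031 and 1066 TPM in naive ones (-1.06 ± 0.38, limma adjusted p = 0.0325). All 4 CpG libraries lay below both naive ones, and replicates 1 and 2 were the lowest. In fl/+ cells Psmb9 was at 301, 482, 1093 and 1028 TPM after CpG, against 987, 801 and 631 TPM in naive cells (-0.32 ± 0.42, limma adjusted p = 0.529), and the groups overlapped. Psmb10 was at 244, 279, 365 and 390.2 TPM in fl/- CpG libraries, against 484 and 498 TPM in naive ones (-0.65 ± 0.19, limma adjusted p = 0.0134). In fl/+ cells it was at 252, 288, 469 and 424 TPM after CpG, against 457, 459 and 432 TPM (-0.37 ± 0.21, limma adjusted p = 0.145), with CpG replicate 3 above the naive libraries and the other 3 below them. Psmb8 did not pass in fl/- (-0.34 ± 0.15, limma adjusted p = 0.0664) or fl/+ cells (-0.08 ± 0.17, limma adjusted p = 0.689). Whether the Psmb9 difference depends on genotype was tested in a comparison added after the data were seen, and it did not pass (-0.57 ± 0.71, limma adjusted p = 0.709). Its 95% interval ran from -2.13 to 0.98. The fl/- call of Psmb9 was lost without CpG replicate 2 (-0.93), naive replicate 1 (-1.08) or naive replicate 2 (-1.03), and that of Psmb10 without naive replicate 1 (-0.67) or 2 (-0.62). In naive cells all 3 genes were higher in series 36 than in series 57, without overlap. Psmb9 was at 801 to 1066 against 631 to 691 TPM, and Psmb8 at 1457 to 1719 against 1178 to 1242 TPM. Psmb10 was at 457 to 498 against 432 to 443 TPM. The naive fl/- libraries are all of series 36. The fl/- CpG values of Psmb9 overlapped those of naive series 57, and those of Psmb10 lay below them. The part of the series in the fl/- differences was not tested.

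Within each library the balance of the catalytic pairs shifted toward the constitutive gene. The ratio of Psmb8 to Psmb5 was 1.64 to 2.35 in the 8 CpG libraries and 4.50 to 6.91 in the 7 naive ones. The ratio of Psmb9 to Psmb6 was 0.407 to 1.43 after CpG and 2.06 to 3.56 in naive libraries, and that of Psmb10 to Psmb7 0.536 to 1.30 and 2.67 to 4.00. None of the 3 ratios overlapped between CpG and naive libraries, and a ratio within a library does not depend on scaling. Together the 3 immunoproteasome genes made up 48.7 to 63.7% of the TPM of the 6 catalytic genes in CpG libraries, 80.6 to 82.0% in HEL-exposed cells with Cre, 72.3 to 79.6% in HEL-exposed cells without Cre, 72.5 to 74.9% in anergic cells and 76.5 to 82.1% in naive cells.

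**Figure D3:**
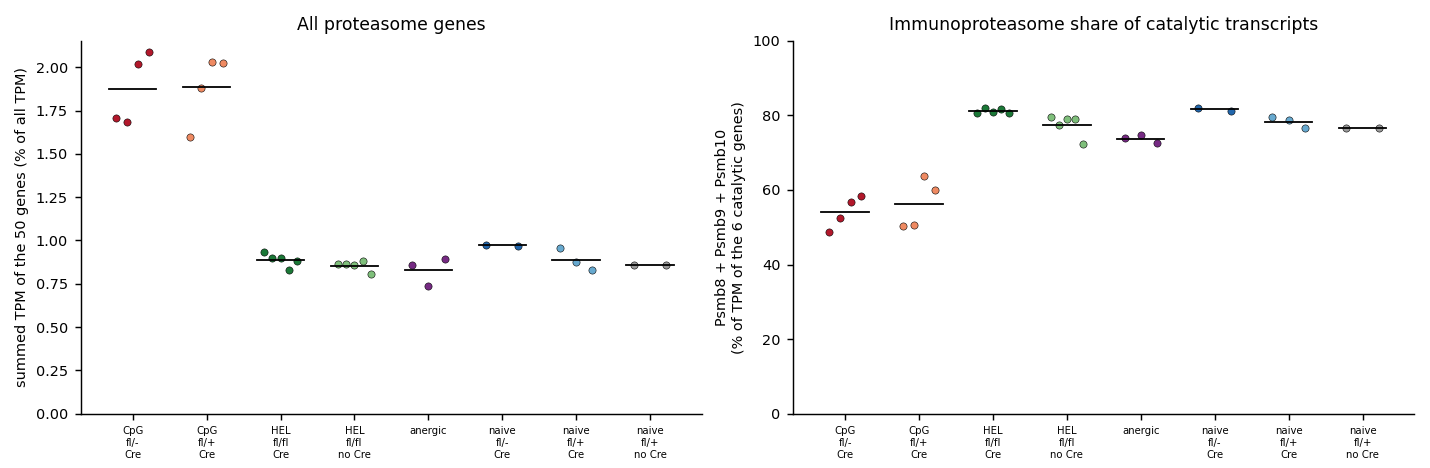
Left, summed TPM of the 50 proteasome genes as a percentage of all TPM. Right, percentage of the TPM of the 6 catalytic genes that belongs to Psmb8, Psmb9 and Psmb10. Points are libraries and lines group means. CpG libraries are highest on the left (1.60 to 2.09%) and lowest on the right (48.7 to 63.7%).

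The immunoproteasome level of a CpG library moved with its interferon-stimulated genes. The library numbers form a first block (replicates 1 and 2 of each genotype) and a second block (replicates 3 and 4). The summed TPM of 17 interferon-stimulated genes was 93.3, 118, 798 and 1751 in fl/- replicates 1 to 4 and 107, 896, 4644 and 3230.3 in fl/+ replicates 1 to 4, against 488 to 799.7 in naive libraries. The sum was higher in the second block than in the first in both genotypes, as was Psmb9. Other members differed between the blocks as well. The share of all 50 genes was 1.60 to 1.88% in the first block and 2.02 to 2.09% in the second. The constitutive beta sum was 4246 to 4885 TPM and 4887 to 5136 TPM, while the alpha ring sum overlapped (2478 to 3168 and 3139 to 3403 TPM). With the first block alone, Psmb9 differed from naive cells by -1.63 in fl/- and -1.06 in fl/+ cells, both called. With the second block alone it differed by -0.48 in fl/- cells, which was called, and by 0.42 in fl/+ cells, which was not. The count of members called higher was 42 in the first and 44 in the second block of fl/- cells, and 41 and 44 in fl/+ cells, Psma8 included where it passed the filter. The part of the interferon-stimulated genes in these values was not tested.

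The activators differed among themselves. Psme3, which encodes the nuclear activator, was at 482, 429, 433 and 408 TPM in fl/- CpG libraries, against 121 and 117 TPM in naive ones (1.87 ± 0.09, limma adjusted p = 9.18e-07). In fl/+ cells it was at 421, 423, 390.4 and 395 TPM after CpG, against 119.9, 147 and 129 TPM (1.62 ± 0.10, limma adjusted p = 2.14e-06). Its CpG values were tightly grouped and stood well above all naive values. Psme4, another nuclear activator, rose by 1.56 ± 0.18 and 1.38 ± 0.22, and Psme2 by 1.28 ± 0.20 and 1.68 ± 0.19. Naive Psme4 was lower in series 36 (4.55 to 6.81 TPM) than in series 57 (10.7 to 11.9 TPM). Psme1, the partner of Psme2 in the interferon-inducible activator, was at 757, 838, 1152 and 1227 TPM in fl/- CpG libraries, against 821 and 807 TPM in naive ones (0.26 ± 0.20, limma adjusted p = 0.261), and at 789.5, 1132, 1529.9 and 1397 TPM in fl/+ CpG libraries, against 746, 639 and 602 TPM (0.83 ± 0.21, limma adjusted p = 0.0075). Its fl/- difference reversed to -0.32 with median-ratio scaling, its fl/+ call was lost under that scaling (0.51), and it carries the overlap suffix.

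Of the 7 assembly chaperones, 6 were called higher in fl/- and 7 in fl/+ cells on the deposited scale, and 5 and 5 with median-ratio scaling. The core chaperones Psmg1, Psmg2 and Psmg3 rose by 2.41, 1.99 and 1.70 in fl/- cells and by 2.26, 2.04 and 1.64 in fl/+ cells. Psmg4, which pairs with Psmg3, differed by 0.07 ± 0.12, limma adjusted p = 0.593 in fl/- cells, and by 0.39 ± 0.13, limma adjusted p = 0.0214 in fl/+ cells. With median-ratio scaling Psmg4 was -0.51 and called lower in fl/- cells, and 0.07 and not called in fl/+ cells. The base chaperones Psmd10, Psmd9 and Psmd5 rose by 1.88, 1.41 and 0.84 in fl/- and by 2.00, 1.31 and 0.72 in fl/+ cells. Naive Psmd10 was lower in series 36 (9.01 to 14.3 TPM) than in series 57 (19.9 to 21.2 TPM). Psmd5 was not called with median-ratio scaling, at 0.27 in fl/- and 0.40 in fl/+ cells. The inhibitor Psmf1 rose by 0.80 ± 0.09 and 0.72 ± 0.11. The highest difference of all matched genes was that of the recombination factor Psmc3ip, at 139.9, 134, 133 and 126 TPM in fl/- CpG libraries, against 7.46 and 10.1 TPM in naive ones, and at 91.9, 101, 108 and 101 TPM in fl/+ CpG libraries, against 11.5, 9.29 and 9.77 TPM in naive ones. It too carries the overlap suffix.

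Of 23 genes that work beside the proteasome, its partners and regulators, 16 were higher and 1 lower in fl/- CpG cells, where 56.3% of all genes were higher, and 13 were higher and 0 lower in fl/+ CpG cells, where 43.0% were. With median-ratio scaling the counts were 10 and 6 in fl/- and 10 and 2 in fl/+ cells. The deubiquitinase Usp14, which docks on the base, was at 47.8 ± 5.09 TPM after CpG and 5.93 ± 1.02 TPM in naive fl/- cells (SD, n = 4 and 2; 2.82 ± 0.14), and the fl/+ difference was 2.09 ± 0.17. The segregase Vcp rose by 2.32 and 1.98, the assembly factor Pomp by 0.94 and 1.41, and the ubiquitin receptor Adrm1 by 1.74 and 1.30. Nfe2l1, the transcription factor that restores proteasome genes when the protease is inhibited, did not pass in fl/- (0.24 ± 0.13, limma adjusted p = 0.12) or fl/+ cells (-0.12 ± 0.16, limma adjusted p = 0.529). Of 13 genes of MHC class I presentation, 4 were higher and 8 lower in fl/- and 3 higher and 5 lower in fl/+ CpG cells, and with median-ratio scaling 2 and 8 in fl/- and 3 and 6 in fl/+ cells. The lower ones included the heavy chain genes H2-K1 (-2.18 and -1.48) and H2-D1 (-2.32 and -1.51) and the peptide transporter subunit Tap2 (-1.11 and -1.12), while the chaperone Canx (1.49 and 1.16) was higher.

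Loss of Ikaros after HEL changed few proteasome genes, and by small amounts. Of 48 tested, 2 were higher and 6 lower in Cre cells than in cells without Cre (5 libraries each), which is 16.7%, beside 36.9% of all 10258 genes tested (12.9% higher and 24.1% lower). The median member difference was -0.02, and -0.08 over all genes. With median-ratio scaling, which moved the members' values by a median of 0.08, 7 were higher and 2 lower. Of all 10258 genes, 1853 were higher and 1611 lower with that scaling. The arms differ in Cre as well as in Ikaros.

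Psmb8 was the immunoproteasome gene called after HEL. It was at 1446, 1379, 1354, 1296 and 1348 TPM in Cre libraries, against 1133, 1108, 1158, 1222 and 986 TPM in libraries without Cre. Every Cre library lay above every control, and the log2 difference was 0.29 ± 0.06, limma adjusted p = 0.00231. Leaving out any 1 library kept the call. Psmb9 was at 869, 999.9, 923, 876 and 851 TPM in Cre libraries, against 847, 810.3, 755, 823 and 502 TPM in controls. The groups did not overlap, but control replicate 5 stood far below the others, and the difference did not pass (0.30 ± 0.12, limma adjusted p = 0.0714). Without that control it was 0.16 and did not pass either, while with median-ratio scaling it passed at 0.38. The same control had the lowest interferon-stimulated sum of the group, 422 TPM, where the other 4 had 1884, 1154, 1086 and 1019 TPM and the Cre libraries 665 to 1049 TPM. Psmb10 did not pass (0.09 ± 0.06, limma adjusted p = 0.251). Of the 13 presentation genes 3 were higher, the peptide transporter subunit Tap1 (0.40 ± 0.12), H2-K1 (0.32 ± 0.09) and Nlrc5, a transactivator of MHC class I genes (0.81 ± 0.26), and none was lower, where median-ratio scaling gave 4 and 0. Of the 17 interferon-stimulated genes limma called 0, with a median difference of -0.36. Markers of other cells differed as well, and not all in the same direction. The dendritic cell sum was 13.9 to 21.9 TPM in Cre libraries, against 4.04 to 7.41 TPM in controls, mostly from Flt3. The myeloid sum was 28.1 to 40.6 TPM, against 9.74 to 15.3 TPM, mostly from Cd68 (21.8 to 29.6, against 5.64 to 10.3 TPM). Csf1r was higher too (2.01 to 4.19, against 0.215 to 0.636 TPM), while Itgam overlapped (2.34 to 4.35, against 2.18 to 3.40 TPM). The NK cell sum was lower, at 4.77 to 8.95 TPM in Cre libraries, against 9.81 to 12.6 TPM in controls. That sum was mostly Prf1 (4.30 to 8.41, against 9.27 to 12.4 TPM), while Klrb1c overlapped (0.299 to 0.547, against 0.196 to 0.759 TPM). Gzma and Ncr1 were at 0 in all of these libraries, and Nkg7 at 0.114 TPM or less. The plasma cell sum was 123 to 158 TPM in Cre libraries, against 72.3 to 94.3 TPM in controls, mostly from Xbp1 (116 to 147, against 66.7 to 84.6 TPM). The plasma cell genes Jchain (0 to 0.158, against 0.607 to 1.85 TPM) and Prdm1 (0.0766 to 0.163, against 0.221 to 0.406 TPM) were lower in Cre libraries. The dendritic cell genes Siglech and Itgax were at 1.49 to 2.90 and 0.0550 to 0.354 TPM in Cre libraries, against 0 to 0.0386 and 0.115 to 0.458 TPM in controls. Their part in the Psmb8 difference was not tested.

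The lowered genes were led by an assembly chaperone and a nuclear activator. Psmg2, which pairs with Psmg1 to assemble the alpha ring, was at 21.2, 23.1, 21.4, 20.3 and 21.9 TPM in Cre libraries, against 29.4, 28.1, 27.9, 26.9 and 31.2 TPM in controls (-0.39 ± 0.06, limma adjusted p = 0.00019). Psme3 was at 84.6, 76.6, 77.9, 82.8 and 99.5 TPM in Cre libraries, against 108, 102, 117, 101 and 107 TPM in controls (-0.35 ± 0.07, limma adjusted p = 0.00208). In both genes every Cre library lay below every control, and both calls held without any 1 library and with median-ratio scaling. Psmc4, a base ATPase, was at 134, 129, 132, 120.3 and 132 TPM in Cre libraries, against 143, 143, 145, 143 and 151 TPM in controls (-0.16 ± 0.05, limma adjusted p = 0.0163), again without overlap, but its call was lost with median-ratio scaling (-0.08). Psma3 (-0.23 ± 0.09), Psmb5 (-0.18 ± 0.07) and Psma6 (-0.16 ± 0.06) were called lower and Psma5 (0.26 ± 0.09) higher, with overlapping groups. With median-ratio scaling Psma3 (-0.15), Psmb5 (-0.10) and Psma6 (-0.07) lost the call, and Psma5 kept it (0.34). For Psma3 the call did not hold if Cre replicate 1, 4 or 5 or control 1, 2, 4 or 5 was left out, and for Psmb5 if any Cre replicate or control 2, 4 or 5 was. The same was so for Psma6 with Cre replicate 1, 2, 4 or 5 or control 1, 2, 4 or 5, and for Psma5 with Cre replicate 1, 3 or 5 or control 1, 2 or 4. In the 10 fits without 1 library the differences ran from -0.28 to -0.18 for Psma3, from -0.21 to -0.14 for Psmb5, from -0.19 to -0.13 for Psma6 and from 0.22 to 0.32 for Psma5. The count of members called lower was 3 without Cre replicate 4 or 5 or control 2, 4 or 5, and the count called higher was 1 without Cre replicate 1, 3 or 5 or control 1 or 2, 4 without Cre replicate 2 and 5 without Cre replicate 4. Among the 23 partners and regulators 0 were higher and 10 lower (3 and 5 with median-ratio scaling), among them Adrm1 (-0.28 ± 0.06) and the stress regulator Nfe2l2 (-0.30 ± 0.07).

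**Figure D4:**
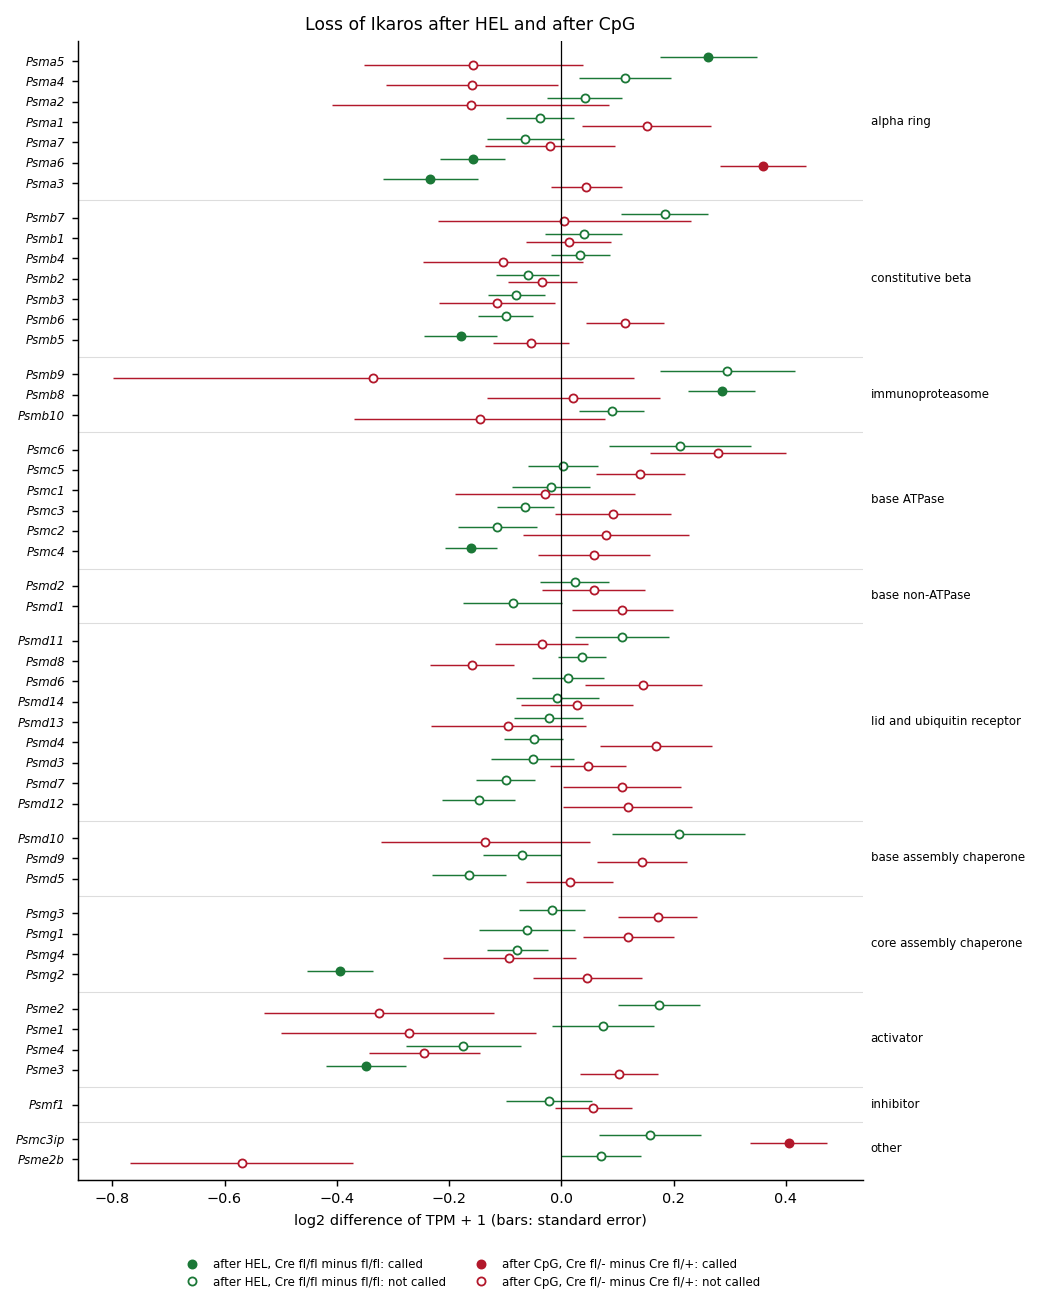
Log2 difference of TPM + 1 with loss of Ikaros for each tested member, after HEL (green) and after CpG (red). Filled points were called and bars are standard errors. Psmg2 (-0.39) and Psme3 (-0.35) lie furthest left among the HEL values. Psma8 is not plotted.

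After CpG, 2 of 48 members were higher and 0 lower in fl/- than in fl/+ cells (4 libraries each), Psma8 left out, or 4.17%, beside 14.9% of all 10386 genes tested (9.14% higher and 5.8% lower). Here both arms carry Cre. Psma6, an alpha ring subunit, was at 789.5, 763, 861 and 829 TPM in fl/- libraries, against 586, 599, 699.7 and 646 TPM in fl/+ libraries. The groups did not overlap (0.36 ± 0.08, limma adjusted p = 0.0144), and without fl/- replicate 3 the difference was 0.33 and did not pass. Psmc3ip was at 139.9, 134, 133 and 126 TPM in fl/- libraries, against 91.9, 101, 108 and 101 TPM in fl/+ libraries (0.40 ± 0.07, limma adjusted p = 0.00539). Psma8 was at 1.61, 1.05, 1.39 and 1.16 TPM in fl/- libraries, against 0.0908, 0, 0 and 0.0772 TPM in fl/+ libraries. These were 71 reads over the 4 fl/- libraries and 2 over the 4 fl/+ libraries, a ratio of 32.8 after allowing for depth. Psma8 passed the filter only through the group where it was high, so its values are a description, with no test. Psmb8 (0.02 ± 0.15, limma adjusted p = 0.943), Psmb9 (-0.33 ± 0.46, limma adjusted p = 0.664) and Psmb10 (-0.15 ± 0.22, limma adjusted p = 0.699) did not pass, and the direction of Psmb8 changed with scaling and without fl/- replicate 3 or 4 or fl/+ replicate 1 or 2, within -0.06 to 0.12. Psme2b was at 17.0, 19.2, 24.8 and 28.1 TPM in fl/- libraries, against 25.1, 30.6, 44.9 and 34.2 TPM in fl/+ libraries (-0.57 ± 0.20, limma adjusted p = 0.0882). It passed with a term for the 2 blocks of library numbers (-0.57), or without fl/+ replicate 1 (-0.70).

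In naive cells of series 36, limma called 0 of 48 members between fl/- and fl/+ cells (2 libraries each), 0 had an unadjusted p under 0.05, and voom on recovered reads also called 0. Median-ratio scaling moved the members' differences by a median of 0.12 and called 0 too. Of all 10053 genes tested 0.0199% were called. The 3 with the smallest p were Psmb7 (0.36 ± 0.19), Psme1 (0.24 ± 0.13) and Psmg4 (0.26 ± 0.14). Psmb8 was at 1719 and 1673 TPM in fl/- libraries, against 1581 and 1457 TPM in fl/+ libraries (0.16 ± 0.11, limma adjusted p = 0.685). Psmb9 was at 1031 and 1066 TPM in fl/- libraries, against 987 and 801 TPM in fl/+ libraries (0.24 ± 0.14, limma adjusted p = 0.646). With so few libraries a 95% interval of -0.09 to 0.41 remained for Psmb8.

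The effect of Ikaros loss differed between CpG and HEL for 4 of 48 members, Psma8 left out, 3 of them higher and 1 lower, or 8.33%, beside 22.4% of all 11050 genes tested (15.2% higher and 7.19% lower). The difference, CpG effect minus HEL effect, was 0.52 ± 0.09, limma adjusted p = 0.000706 for Psma6, which was higher with loss of Ikaros after CpG (0.36) and lower after HEL (-0.16). With median-ratio scaling the HEL effect of Psma6 was -0.07 and not called, and its difference of effects was 0.46 and called. The difference was 0.45 ± 0.10, limma adjusted p = 0.00427 for Psme3 (0.10 and -0.35) and 0.44 ± 0.11, limma adjusted p = 0.00631 for Psmg2 (0.05 and -0.39). For Psme2b it was -0.64 ± 0.20, limma adjusted p = 0.0309. For Psmb8 the difference of -0.26 ± 0.16, limma adjusted p = 0.255 did not pass, so the call after HEL and not after CpG does not show that the effects differ. The call of Psme2b was lost without CpG fl/- replicate 1 or 2, CpG fl/+ replicate 3 or 4, HEL Cre replicate 1 or HEL control 5, with differences from -0.62 to -0.50. In all, 4 members were lower without CpG fl/+ replicate 1, and 2 without CpG fl/+ replicate 2 or fl/- replicate 4. Between CpG and naive cells limma called a difference of effect for 0 of the 48, 2 had an unadjusted p under 0.05, and voom on recovered reads also called 0, beside 2.49% of all genes tested (2.16% higher and 0.327% lower). Genotype (fl/- or fl/fl), Cre in the controls, place of stimulation and library series differ between the 2 comparisons along with the stimulus, and these cannot be told apart.

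The remaining comparisons concern antigen in the mouse, all within series 57 and in cells with at least 1 intact Ikzf1 allele. After HEL for 1 day 7 of 48 members were higher and 9 lower than in naive cells (5 and 3 libraries), or 33.3%, beside 48.0% of all 10448 genes tested (9.92% higher and 38.1% lower). Median-ratio scaling moved the members' differences by a median of 0.17, and on that scale 14 were higher and 0 lower. Of all 10448 genes, 2057 were higher and 2147 lower on that scale. Without the second naive library that lacks Cre, 2 members were higher. Psmb1 was at 628, 669.8, 597, 676 and 607 TPM in HEL-exposed libraries, against 451, 474 and 487 TPM in naive ones. The groups stood well apart (0.43 ± 0.06, limma adjusted p = 0.000357, and 0.60 with median-ratio scaling). Psmd10, a base chaperone, was at 25.5, 29.2, 24.3, 23.1 and 31.1 TPM in HEL-exposed libraries, against 21.2, 21.1 and 19.9 TPM in naive ones (0.34 ± 0.10, limma adjusted p = 0.0146, and 0.50 scaled). Without the second naive library without Cre its difference was 0.31 and did not pass. Psma2 (0.30 ± 0.08), Psme1 (0.31 ± 0.10) and Psmc6 (0.25 ± 0.08) were also higher, and scaled values were 0.47, 0.48 and 0.41. Psme1 lost its call without HEL replicate 4, the naive library with Cre or the second naive library without Cre. Psmc6 lost it without HEL replicate 1 or 5 or without any of the 3 naive libraries, with differences of 0.21 to 0.27.

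The members called lower after HEL depended on the scale. Psmb6 was at 237, 244, 225, 248 and 261 TPM in HEL-exposed libraries, against 306, 280.4 and 299.9 TPM in naive ones (-0.28 ± 0.06, limma adjusted p = 0.00351, and -0.11 scaled, not called). Psmb10 was at 386, 368, 360.1, 389.6 and 322 TPM in HEL-exposed libraries, against 432, 443 and 433 TPM in naive ones (-0.26 ± 0.07, limma adjusted p = 0.00909, and -0.09 scaled, not called). Psmc3ip (-0.36), the lid gene Psmd3 (-0.26) and Psma6 (-0.21) were called lower and lost the call when scaled, and Psma6 also without the second naive library without Cre (-0.20). Psmb8 (-0.12 ± 0.07, limma adjusted p = 0.179) and Psmb9 (0.14 ± 0.15, limma adjusted p = 0.472) did not pass. In the same comparison 10 of 17 interferon-stimulated genes were higher and 0 lower, led by Ifit3 (1.95 ± 0.49).

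**Figure D5:**
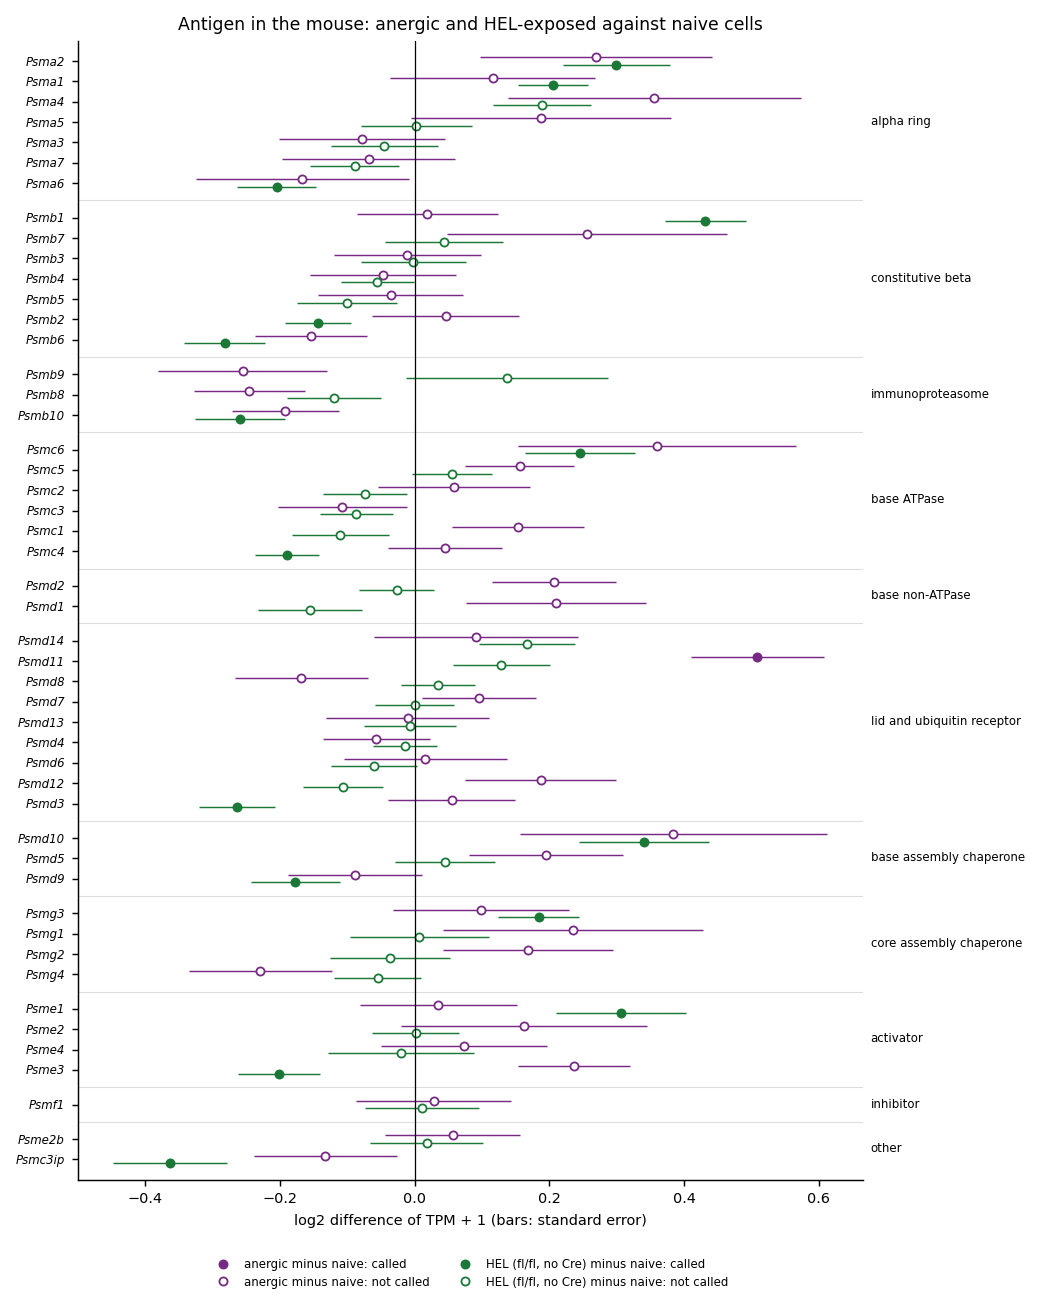
Log2 difference of TPM + 1 from the same 3 naive libraries of series 57 for anergic (purple) and HEL-exposed (green) cells, each tested member by role. Filled points were called and bars are standard errors. Psmd11 (0.51) is the anergic gene called, and Psmb1 (0.43) has the highest HEL value.

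In anergic cells 1 of 48 members was higher than in naive cells and 0 were lower (3 libraries each), beside 7.37% of all 10519 genes tested (4.48% higher and 2.89% lower). Psmd11, a lid subunit that holds the particle together, was at 59.7, 49.7 and 51.4 TPM in anergic libraries, against 37.7, 37.2 and 36.9 TPM in naive ones. The groups did not overlap (0.51 ± 0.10, limma adjusted p = 0.0198). The call was lost without anergic replicate 1 (0.43), without the naive library with Cre (0.52) and without either naive library without Cre (0.51 and 0.50). Without anergic replicate 2, in contrast, 7 members were higher. The immunoproteasome genes were lower in mean but none passed. Psmb8 was at 1054, 984 and 1038 TPM in anergic libraries, against 1178, 1228 and 1242 TPM in naive ones, without overlap (-0.25 ± 0.08, limma adjusted p = 0.122). Psmb9 differed by -0.26 ± 0.13, limma adjusted p = 0.276 and Psmb10 by -0.19 ± 0.08, limma adjusted p = 0.194. Beside these, 4 of 17 interferon-stimulated genes were lower and 0 higher, and the sum of the 17 was 353, 312 and 402 TPM in anergic libraries, against 496, 495 and 488 TPM in naive ones.

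Set directly against HEL-exposed cells without Cre, anergic cells had 8 of 48 members higher and 1 lower, or 18.8%, beside 42.2% of all 10491 genes tested (36.8% higher and 5.39% lower). Median-ratio scaling moved the members' differences by a median of -0.24, and on that scale 0 were higher and 7 lower. Of all 10491 genes, 1191 were higher and 1302 lower on that scale. Psmb1 was lower on both scales, at 489, 419 and 526 TPM in anergic libraries, against 628, 669.8, 597, 676 and 607 TPM in HEL-exposed ones (-0.41 ± 0.09, limma adjusted p = 0.00575, and -0.65 scaled). Psme3 was at 143, 141 and 152 TPM in anergic libraries, against 108, 102, 117, 101 and 107 TPM in HEL-exposed ones, without overlap (0.44 ± 0.07, limma adjusted p = 0.00201), but scaled it was 0.20 and not called. Psmd11 (0.38), Psmd1 (0.37), Psmd3 (0.32), Psmd12 (0.29), Psmc1 (0.26), Psmc4 (0.24) and Psmd2 (0.23), all of the base or lid, were called higher, and none of these 7 kept its call when scaled. The count called higher was 17 without anergic replicate 2, 2 without anergic replicate 1, 4 without anergic replicate 3, 3 without HEL replicate 2 and 4 without HEL replicate 4, and the count called lower was 3 without anergic replicate 3 or HEL replicate 5. Psmb8 (-0.13 ± 0.08, limma adjusted p = 0.226) and Psmb9 (-0.39 ± 0.17, limma adjusted p = 0.0829) did not pass, but both were among the 7 lower ones when scaled (-0.36 and -0.63). Of the 17 interferon-stimulated genes 15 were lower and 0 higher. This comparison shares its libraries with the 2 against naive cells, so the 3 sets of values are not independent.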

How the data were processed

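Gene expression was measured by RNA-seq in 28 libraries; 8 ATAC-seq and 4 ChIP-seq samples of the 40 in the series were not used here. The authors deposited TPM values for 24732 genes per library, scaled within each library. Per the submitters' processing notes, the tools for the series were deepTools 3.0.1, SAMtools 1.4, featureCounts 1.5.0, TopHat 1.4.1 and Bowtie, and the build was mm9. Per the labels' protocols, RNA was purified on columns and mRNA on beads. Whether counting used strand is not given in the sources used here.

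Groups came from the labels. Members, roles and lists were chosen with earlier results of these data known. Genes entered a comparison if they reached 1 TPM in n libraries, n being the size of its smaller group (4 for differences of effects). Psma8, which reached 1 TPM in 1 group alone, was left out of the counts and tests of members, except where a count is said to include it. Values were compared as log2(TPM + 1) with limma 3.58.1 (R 4.3.3; mean-variance trend, two-sided, Benjamini-Hochberg over all genes tested), and called at an adjusted p under 0.05. The tests were checked on simulated data. Values per library were given for the catalytic pairs, the activators and the 5 most raised and 5 most lowered members called in a comparison (mean TPM of 5 or more in the higher group), or the 3 with the smallest p where none was called; Psmd14 and the within-group values in the closing section were chosen after values were seen. Fitted intervals are 95% intervals from limma.

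Because TPM steps are whole multiples of 1 read per gene, reads were recovered for 18843 of 18843 genes above 0, within 0.01 of whole numbers, and gave the depths. All 40 pairs of replicates differed by more than counting noise (chi-square per degree of freedom 6.34 to 79.69), so none was merged. Alternatives were a pseudocount of 0.1, no filter on low values, median-ratio scaling, voom on recovered reads, leaving out each library, a term for the library-number block, 1 fit over series 57, libraries without Cre, and naive libraries of 1 series. The blocks of CpG libraries taken alone and the comparison of CpG with naive effects were added after the data were seen. Promoter sequences are RefSeq's, on GRCm38.p6, and give no coordinates on mm9. Gene names are those of the files. Python 3.11.15, pandas 2.3.3 and matplotlib 3.10.9 were used for tables and plots.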

Additional observations from a re-analysis of the deposited data

Results flagged for a closer look

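In 123 groups of 4 to 10 values, from 31 members, 5 had 1 library far from the rest, and chance alone gives this in about 1 of 20 groups. In 3 of them the library was fl/+ CpG replicate 1. Psma1 was at 303.8 TPM there, where the other 3 fl/+ CpG libraries had 405, 419 and 400.0 TPM. Psma4 was at 180.7 TPM, where the others had 259, 262 and 264 TPM. Psmc4, the base ATPase, was at 409.0 TPM, where the others had 491, 481 and 491 TPM. Without that library the CpG differences from naive fl/+ cells were 2.47 for Psma1 and 3.08 for Psma4, and both stayed called. Psmb9 was at 502.2 TPM in HEL control 5, where the other 4 controls had 847, 810.3, 755 and 823 TPM. Psmd11 was at 35.21 TPM in HEL control 4, where the other controls had 41.7, 42.5, 42.5 and 42.7 TPM.

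The effect of Ikaros loss differed between CpG and HEL, by limma's test of the difference, for Psma6 (0.5168 in log2), Psme3 (0.4501), Psmg2 (0.4411) and Psme2b (-0.6407). For Psma8 the fitted difference was 1.082 between CpG and HEL, and 1.0816 between CpG and naive cells in the comparison added after the data were seen. Psma8 passed the filter only through the 4 fl/- CpG libraries, with 14 to 23 reads in each and 0 to 3 in every other library, so these 2 values are a description and no test.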

How the results depend on the processing

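No paired analysis was possible because the labels give no replicate numbers. Counts that follow are members called higher or lower, and include Psma8 where it passed the filter. Median-ratio scaling gave 7 higher and 2 lower for Ikaros loss after HEL, 14 and 0 for HEL against naive cells, 0 and 7 for anergic against HEL-exposed cells, 6 lower in fl/- and 1 lower in fl/+ CpG against naive cells, and 2 lower for CpG minus HEL. Voom on recovered reads gave 4 and 2, 12 and 0, and 1 and 6 for the first 3 of these comparisons. Over all genes voom gave 1509 and 2186, 1660 and 2591, and 2054 and 915 for the same 3. It gave 0 members higher for CpG minus naive, as did a pseudocount of 0.1, where the main fit called Psma8 alone. No filter on low values gave 3 lower after HEL, 1 lower in fl/- CpG cells and 0 lower for CpG minus HEL. In 1 fit over series 57 there were 1 higher and 3 lower after HEL, 2 higher for HEL against naive cells, 4 lower for anergic against HEL-exposed cells and 1 lower for anergic against naive cells. With a term for the library-number block, a check of shared blocks and not of pairs, 1 member was lower with Ikaros loss after CpG. In libraries without Cre 0 were higher in anergic cells, and with the first block of CpG libraries 2 were lower in fl/+ cells.

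Without 1 library, counts higher and lower ran from 1 to 5 and 3 to 6 for Ikaros loss after HEL, 2 to 3 and 0 to 1 after CpG, and 3 to 6 and 0 to 4 for their difference. They ran from 2 to 9 and 6 to 9 for HEL against naive cells, 2 to 17 and 1 to 3 for anergic against HEL-exposed cells, and 0 to 7 and 0 to 0 for anergic against naive cells. For CpG against naive cells they ran from 42 to 43 and 0 to 3 in fl/-, and 42 to 44 and 0 to 1 in fl/+ cells, and CpG minus naive ran from 0 to 1 and 0 to 0. The 1 member counted for CpG minus naive was Psma8, whose values are a description and no test. Where 1 library was left on a side, limma assumes that it varies like the other group.

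Directions turned for few named genes. In fl/- CpG cells Psmb1 was -0.31 and Psme1 -0.32 with scaling, and Psme1 -0.0307 with the first block. In fl/+ CpG cells Psmb8 was 0.16 with series 57 naive cells, 0.14 with the second block and -0.20 to 0.0087 without 1 library, and Psmb9 was 0.0102, 0.42 and -0.58 to 0.0393. After CpG, Psmb8 with Ikaros loss was -0.0044 with scaling and -0.0625 to 0.12 without 1 library. For anergic against HEL-exposed cells Psmc4 was -0.0020 and Psmd2 -0.0025 with scaling. The causes were not tested. Among all alternatives for named genes other than leaving out 1 library, 394 values kept direction and side of the threshold, 59 lost the call, 11 gained it and 10 turned, and without 1 library these were 569, 86, 3 and 6. The number of libraries in a group, 2 to 5, limits the precision, and few reads limit Psma8 and Psmb11.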

Other observations

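Within groups, members did not spread alike. The pooled within-group SD of log2(TPM + 1) over the 48 genes at 1 TPM or more in every library ran from 0.0652 to 0.479, with a median of 0.146. The naive fl/+ group with Cre holds libraries of series 36 and 57, so differences between these series enter the SD. Psmb9 had the highest, and the base chaperone Psmd10 (0.339), Psma2 (0.290), Psmb7 (0.279), Psmc6 (0.279) and Psma5 (0.278) followed. Several of these were high or low in the same libraries, and the genes were chosen after their values were seen. In fl/+ CpG cells Psma2 was at 231, 526, 337 and 525 TPM, Psmb7 at 263, 538, 362 and 507 TPM and Psmd10 at 38.9, 65.9, 51.3 and 66.0 TPM, with replicates 2 and 4 the highest for each. In anergic cells Psma2 was at 237, 149 and 197 TPM, Psmb7 at 199, 121 and 209 TPM and Psmd10 at 36.2, 17.8 and 31.5 TPM, with replicate 2 the lowest for each. Psma4 was lowest in that library too, at 64.4, 32.5 and 52.3 TPM. In naive fl/+ cells with Cre, Psma2 was at 188, 111 and 137 TPM and Psmb7 at 163, 115 and 124 TPM, with replicate 2 the lowest. In fl/+ CpG cells the interferon-stimulated sum was instead highest in replicates 3 and 4, as was Psmb9.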
